A study of Mus musculus with 8 samples.

Results

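To examine the regulators of mitochondrial biogenesis and of mitochondrial DNA (mtDNA) expression in lung tumors with and without a *Setd2* knockout, 10 genes were followed through the deposited table of 48709 genes. They were chosen by name and found by matching the table's Ensembl identifiers to GENCODE M21 symbols. These were the coactivators *Ppargc1a* and *Ppargc1b*, the nuclear transcription factors *Nrf1*, *Gabpa* and *Esrra*, the mitochondrial transcription genes *Tfam*, *Tfb1m*, *Tfb2m* and *Polrmt*, and the mtDNA polymerase *Polg*. All 10 genes matched 1 row each and all 10 had enough counts to be tested.

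RNA was sequenced from 8 mouse lung tumors, 4 labelled *K-Ctrl* and 4 labelled *K-Setd2KO*. All tumors arose in mice of the *K* model, of mixed B6J and 129S4vJae background, in which a lentivirus carrying Cre and CRISPR-Cas9 was given through the trachea to start tumors in both groups. *K-Ctrl* tumors received a guide RNA against GFP, which has no target in these mice, and *K-Setd2KO* tumors received a guide RNA against *Setd2*, the gene of the histone H3 lysine-36 methyltransferase. Male and female mice were used, and the sources used here give no age at harvest for these tumors. The labels do not say whether the 4 tumors of a group came from separate mice, so p-values measure the spread between these tumors. The design text describes flash-frozen tumors, while the extraction text speaks of cell lines. They are treated as tumors in what follows, and their marker genes are given further on. In bulk tumors, fewer cells of a type and less RNA per cell cannot be told apart.

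Mitochondrial biogenesis is set in the nucleus. The coactivators PGC-1α (*Ppargc1a*) and PGC-1β (*Ppargc1b*) have no DNA-binding activity of their own and act through factors such as NRF1, GABP and ERRα, which bind promoters of genes for respiratory chain subunits and for the mtDNA machinery. TFAM packages mtDNA and, with TFB2M, brings the RNA polymerase POLRMT to the mtDNA promoters, whose long transcripts are cut into mRNAs, rRNAs and tRNAs. In the lung, alveolar type 2 cells, from which adenomas can arise, are rich in mitochondria.

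The promoters of the members were searched for motifs of factors of this kind, and 5 of these promoters are shown. Promoter windows of 300 bases (250 before and 50 after the annotated start) were taken from RefSeq on GRCm38.p6, which had an entry for 9 of the 10 genes and 2 entries for *Nrf1*. *Ppargc1b* had none. They were searched on both strands for the GABP motif CCGGAAG, the NRF1 motif (GCGCA and GCGC set apart by any 1 base), the ERR motif TCAAGGTCA, the cyclic AMP response element TGACGTCA and the YY1 motif AAGATGGCG. Capitals mark the matches. The windows are *Tfam* (chr10:71237995-71238294, minus strand), *Polrmt* (chr10:79746532-79746831, minus strand), *Polg* (chr7:79466224-79466523, minus strand), *Gabpa* (chr16:84834874-84835173, plus strand) and *Ppargc1a* (chr5:51567676-51567975, minus strand).
Tfam: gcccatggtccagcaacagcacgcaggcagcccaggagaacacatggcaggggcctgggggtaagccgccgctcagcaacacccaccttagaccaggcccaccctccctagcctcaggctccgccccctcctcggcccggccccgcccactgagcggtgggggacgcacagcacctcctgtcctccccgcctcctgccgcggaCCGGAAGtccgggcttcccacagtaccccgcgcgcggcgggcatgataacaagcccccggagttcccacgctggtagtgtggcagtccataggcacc
Polrmt: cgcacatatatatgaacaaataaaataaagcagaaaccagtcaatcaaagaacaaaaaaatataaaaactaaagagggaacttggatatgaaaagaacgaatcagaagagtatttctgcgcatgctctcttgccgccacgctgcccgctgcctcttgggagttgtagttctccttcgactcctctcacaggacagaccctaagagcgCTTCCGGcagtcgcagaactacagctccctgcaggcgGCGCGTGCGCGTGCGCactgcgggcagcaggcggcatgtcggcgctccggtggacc
Polg: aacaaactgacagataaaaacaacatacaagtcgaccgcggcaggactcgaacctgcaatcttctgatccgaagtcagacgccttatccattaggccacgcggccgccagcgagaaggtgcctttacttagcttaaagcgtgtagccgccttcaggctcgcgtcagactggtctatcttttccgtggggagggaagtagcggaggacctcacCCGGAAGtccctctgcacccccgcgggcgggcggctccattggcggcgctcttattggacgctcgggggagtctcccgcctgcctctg
Gabpa: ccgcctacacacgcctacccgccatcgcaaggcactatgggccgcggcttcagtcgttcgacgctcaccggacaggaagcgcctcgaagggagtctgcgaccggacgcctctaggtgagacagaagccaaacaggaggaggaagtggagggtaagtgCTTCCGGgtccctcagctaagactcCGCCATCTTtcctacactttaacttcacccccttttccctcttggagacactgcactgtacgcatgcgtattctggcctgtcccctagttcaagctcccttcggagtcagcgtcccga
Ppargc1a: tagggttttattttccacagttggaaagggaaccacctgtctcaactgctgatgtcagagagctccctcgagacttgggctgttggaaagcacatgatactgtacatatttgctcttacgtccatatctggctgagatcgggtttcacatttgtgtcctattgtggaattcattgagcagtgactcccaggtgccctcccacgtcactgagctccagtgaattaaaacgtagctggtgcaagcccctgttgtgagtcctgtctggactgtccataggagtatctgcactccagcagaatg

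The GABP motif was found in the windows of *Gabpa*, *Tfam*, *Polrmt* and *Polg*, while 8.86% of 32851 RefSeq mouse promoter windows held it. In *Tfam* it lay at bases 204 to 210 of the window, in *Polrmt* at 208 to 214 and in *Polg* at 213 to 219, each within 50 bases of the annotated start. The NRF1 motif was found in *Polrmt* alone, as a pair of matches at bases 245 to 254 and 251 to 260 that share letters, against 4.6% of all windows. The YY1 motif was found in *Gabpa* alone (1.4% of all windows). The ERR motif and the cyclic AMP response element, held by 0.423% and 1.79% of all windows, had no match in these 10 windows. The *Ppargc1a* window, shown because this gene passed the test described next, held none of the 5 motifs. Its GC content was 48.7%, with 5 CpG dinucleotides, against 70.3% and 21 in *Tfam* and a median of 52.7% GC over all windows. These are matches of letters in a window and not measured binding.

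*Ppargc1a* was the 1 member that passed the test between the genotypes. Levels are given as CPM (counts scaled to a common TMM-adjusted library size). *Ppargc1a* (ENSMUSG00000029167.13, protein-coding, chromosome 5, 51454250 to 51567726, minus strand) stood at 11.8, 6.89, 11.1 and 20.1 CPM in *K-Ctrl* replicates 1 to 4 and at 20.7, 29.9, 39.0 and 22.8 CPM in *K-Setd2KO* replicates 1 to 4. All 4 knockout tumors lay above all 4 control tumors, with the lowest knockout tumor close to the highest control. The means were 12.5 ± 5.52 CPM and 28.1 ± 8.29 CPM (SD, n = 4 each). The log2 fold change was 1.17 (SE 0.328, 95% interval 0.44 to 1.91), a 2.26-fold higher level, with an adjusted p of 0.0467 by edgeR's quasi-likelihood test with Benjamini-Hochberg adjustment over 14929 genes. It was the only 1 of the 10 members past the threshold of 0.05, against 12.7% of all tested genes in either direction with 4.97% higher and 7.74% lower. It was also the only member without overlap between the groups, against 20.3% of all tested genes, with 9.06% higher without overlap.

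The call for *Ppargc1a* stood close to the threshold. In 7 of 8 fits that each left out 1 tumor it was lost, with adjusted p-values up to 0.121, and without *K-Ctrl* replicate 4, the highest control, it was kept at 0.0156. With the replicate number as a block the adjusted p was 0.0802, and with DESeq2, the tool of the study, it was 0.007. The log2 fold change ranged from 0.97 to 1.63 over 18 alternative fits and never changed sign. Expression of *Xist* and Y-linked genes gave 1 female tumor in *K-Ctrl* against 3 in *K-Setd2KO*. The difference in mean log2 CPM of *Ppargc1a* was 1.49 among the male tumors and 1.79 among the female tumors, where 1 side is a single tumor each time. With a sex term in the fit the log2 fold change was 1.63.

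**Figure D1:**
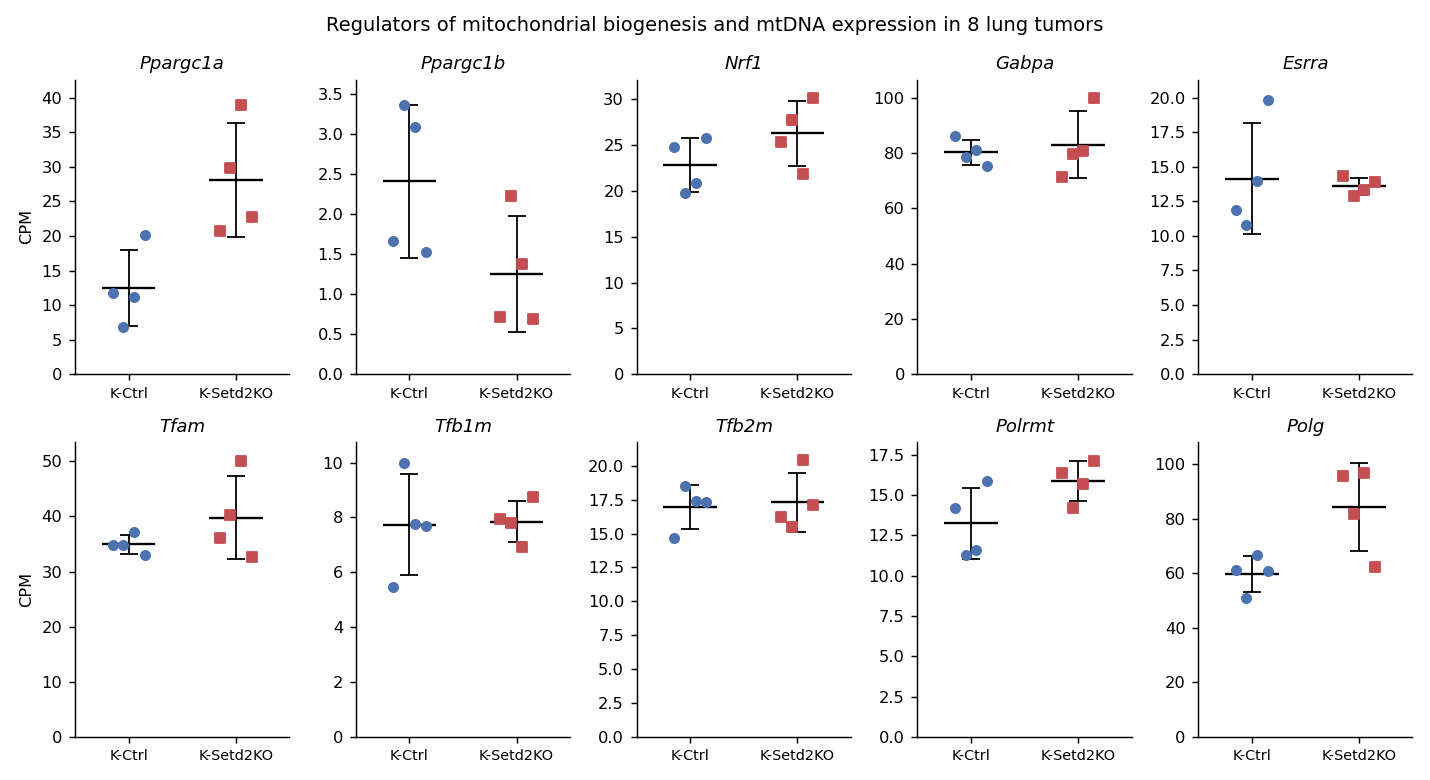
Level of each of the 10 regulators in each tumor, in CPM on a linear axis from 0, with K-Ctrl as circles and K-Setd2KO as squares; the horizontal line is the mean and the bar is the SD (n = 4 each). The groups are apart for Ppargc1a, where the lowest knockout tumor (20.7 CPM) is just above the highest control (20.1 CPM), and overlap for the other 9 genes.

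Markers of other cell types were compared in the same fit. The summed level of 6 leukocyte markers was 611 to 1164 CPM in *K-Ctrl* and 210 to 279 CPM in *K-Setd2KO*, and all 6 passed the test as lower. Of 6 macrophage markers 5 were lower (443 to 1479 CPM against 156 to 311 CPM), as were 2 of 6 endothelial markers (453 to 1634 CPM against 168 to 437 CPM). Among alveolar type 1 markers 2 of 6 were lower (1433 to 3176 CPM against 1135 to 1767 CPM), and 1 fibroblast and 1 T cell marker of 6 each were lower. The 4 tested erythroid markers all had an unadjusted p under 0.05 as lower and none was called by edgeR (138 to 724 CPM against 67.2 to 180 CPM). Of 5 neutrophil markers 4 were above 0 and none was called (median log2 fold change 0.54, 15.9 to 20.3 CPM against 13.8 to 56.0 CPM). None of the 5 B cell and 5 smooth muscle markers was called, and 3 of each had an unadjusted p under 0.05 (medians of -2.14 and -1.02). None of 3 club cell and 6 ciliated cell markers was called either (medians of -1.23 and -0.69). Of 8 alveolar type 2 markers, used to check the labelled lung adenocarcinoma, 1 was higher, and their sum of 46026 to 68383 CPM against 55039 to 78645 CPM overlapped. Erythroid, endothelial and immune markers were thus present in samples whose extraction text speaks of cell lines. Muscle and brown fat, tissues known for high *Ppargc1a*, were looked for as well. Of 7 cardiac and skeletal muscle markers 5 were tested, of which 2 were above 0 (up to 0.65) and 3 below, with 1 called as lower and none as higher (85.6 to 260 CPM against 44.3 to 227 CPM), and *Ucp1* and *Adipoq*, defining markers of brown fat and of fat cells, had 0 counts in all 8 tumors. The 6 fat cell markers summed to 39.5 to 104 CPM in *K-Ctrl* against 26.4 to 122 CPM in *K-Setd2KO*, and of the 3 tested none was called, with 2 above 0 and 1 at a log2 fold change of -3.27 (unadjusted p under 0.05 by edgeR). The part of these other cells in the *Ppargc1a* result was not tested.

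*Ppargc1b* had the lowest level of the 10 members and the widest error. This gene (ENSMUSG00000033871.14, chromosome 18, 61298136 to 61400431, minus strand) had 4 to 67 counts per tumor. Its level was 1.66, 3.36, 3.09 and 1.52 CPM in *K-Ctrl* against 0.719, 2.22, 1.38 and 0.685 CPM in *K-Setd2KO*. In *K-Setd2KO*, 3 tumors lay below the lowest control, and replicate 2 lay inside the control range. The log2 fold change was -0.92 (SE 0.489, 95% interval -2.02 to 0.18, adjusted p = 0.24 by edgeR). A decrease or no difference could not be told apart at this depth, where 3 counts correspond to 0.138 to 0.513 CPM.

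The coactivators were also set against each other per length. In TPM, which divides counts by the deposited exon length before scaling to a common total, the ratio of *Ppargc1a* to *Ppargc1b* was 4.3, 1.24, 2.18 and 8.01 in *K-Ctrl* against 17.4, 8.16, 17.1 and 20.1 in *K-Setd2KO*. Every knockout tumor lay above every control, although *K-Setd2KO* replicate 2 was only just above *K-Ctrl* replicate 4. The geometric means were 3.11 and 14.9. The ratio was chosen after the values of both genes were seen and is given without a test, and its denominator rests on 4 to 67 *Ppargc1b* counts per tumor.

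None of the 3 nuclear transcription factors passed the test. *Nrf1*, a factor for respiratory and mtDNA machinery genes (ENSMUSG00000058440.14, chromosome 6, 30047988 to 30153458, plus strand), was at 24.8, 19.8, 20.9 and 25.8 CPM in *K-Ctrl* against 25.4, 27.8, 21.8 and 30.1 CPM in *K-Setd2KO*. In this gene 2 knockout tumors lay above all controls and the groups overlapped (log2 fold change 0.20, SE 0.155, adjusted p = 0.423 by edgeR). *Nrf1* lies on chromosome 6, whose 838 tested genes were higher as a whole in 3 of 4 knockout tumors. The median log2 level of these genes relative to the control mean was 0.34, -0.03, 0.32 and 0.38 in *K-Setd2KO* replicates 1 to 4. With that chromosome median subtracted in each tumor, the difference of *Nrf1* went from 0.20 to -0.06 (two-sided exact permutation p = 0.714). The other members' chromosomes had median differences between -0.04 and 0.04.

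*Gabpa*, the DNA-binding subunit of GABP (ENSMUSG00000008976.16, chromosome 16, 84834925 to 84863779, plus strand), was at 86.1, 78.7, 81.0 and 75.4 CPM in *K-Ctrl* against 71.5, 79.9, 80.8 and 100.1 CPM in *K-Setd2KO*. The knockout tumors spread on both sides of the controls (log2 fold change 0.05, SE 0.125, adjusted p = 0.835 by edgeR). *Esrra*, the gene of the orphan nuclear receptor ERRα (ENSMUSG00000024955.13, chromosome 19, 6910977 to 6921813, minus strand), was at 11.9, 10.8, 14 and 19.8 CPM in *K-Ctrl* against 14.3, 12.9, 13.3 and 13.9 CPM in *K-Setd2KO*. All 4 knockout tumors lay within the control range (log2 fold change -0.06, SE 0.209, adjusted p = 0.879 by edgeR). Its coefficient of variation was 28.4% in *K-Ctrl*, where replicate 4 was high, and 4.63% in *K-Setd2KO*. The signs of the *Gabpa* and *Esrra* differences turn when 1 tumor is left out.

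None of the 4 genes of mitochondrial transcription passed the test. *Tfam*, the packaging and transcription factor of mtDNA (ENSMUSG00000003923.14, chromosome 10, 71225464 to 71238280, minus strand), was at 34.8, 34.8, 37.1 and 33.0 CPM in *K-Ctrl* against 36.0, 40.3, 50 and 32.7 CPM in *K-Setd2KO*. The controls varied by 4.81% (coefficient of variation) and the knockout tumors by 18.9%, with replicate 3 the highest and replicate 4 below every control. The log2 fold change was 0.19 (SE 0.148, 95% interval -0.15 to 0.52, adjusted p = 0.433 by edgeR), so that a rise beyond 1.43-fold lay outside the interval. *Polrmt*, the mitochondrial RNA polymerase (ENSMUSG00000020329.12, chromosome 10, 79736123 to 79746581, minus strand), was at 14.2, 11.3, 11.6 and 15.9 CPM in *K-Ctrl* against 16.4, 14.2, 15.7 and 17.1 CPM in *K-Setd2KO*. Of the knockout tumors 2 lay above all controls (log2 fold change 0.26, SE 0.169, adjusted p = 0.342 by edgeR).

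*Tfb2m*, the partner of POLRMT at the promoter (ENSMUSG00000026492.11, chromosome 1, 179528055 to 179546267, minus strand), had mean levels of 17 ± 1.6 CPM and 17.3 ± 2.16 CPM (SD, n = 4 each). *Tfb1m*, which methylates the small mitochondrial rRNA (ENSMUSG00000036983.6, chromosome 17, 3519263 to 3557713, minus strand), was at 5.48, 10, 7.76 and 7.68 CPM in *K-Ctrl* against 7.96, 7.8, 6.92 and 8.73 CPM in *K-Setd2KO*. The knockout tumors of *Tfb1m* lay within the control range. The log2 fold changes were 0.03 (SE 0.153) for *Tfb2m* and 0.02 (SE 0.228) for *Tfb1m*, with adjusted p-values of 0.923 and 0.957 by edgeR, and neither sign held over the alternative fits.

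*Polg*, the catalytic subunit of the mtDNA polymerase (ENSMUSG00000039176.17, chromosome 7, 79446231 to 79466362, minus strand), came closest to the threshold after *Ppargc1a*. It was at 61.1, 50.9, 66.8 and 60.7 CPM in *K-Ctrl* against 95.9, 81.8, 97.0 and 62.3 CPM in *K-Setd2KO*. Replicates 1 to 3 of *K-Setd2KO* lay above all controls, while replicate 4, the shallowest library at 5806599 counts, lay inside the control range. The log2 fold change was 0.49 (SE 0.160, 95% interval 0.13 to 0.86), 1.41-fold higher, with an unadjusted p of 0.0125 and an adjusted p of 0.0729 by edgeR. Of 18 alternative fits it passed in 1, without *K-Setd2KO* replicate 4 (log2 fold change 0.61, adjusted p = 0.0327). Leaving out any other tumor gave adjusted p-values of 0.0973 to 0.168, and the 10 fits on all tumors gave 0.0544 to 0.109. The exons of *Polg* overlap those of *Fanci*, on the opposite strand, over 8.6% of their length in GENCODE M21, as those of *Gabpa* overlap *Atp5j* over 7.0%, and whether counting used the read strand is not given in the sources used here.

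Over all 10 members, the estimate was above 0 in 8 and below 0 in 2, with a median log2 fold change of 0.12 against 0.03 over all tested genes, of which 52.7% were above 0. In 7 members the estimate was within 0.3 of 0 on the log2 scale. In 8 members the 95% interval lay within 1 log2 unit of 0, and the exceptions were *Ppargc1a* and *Ppargc1b*. An unadjusted p under 0.05 was reached by 2 members, *Ppargc1a* and *Polg*, against 29.9% of all tested genes.

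**Figure D2:**
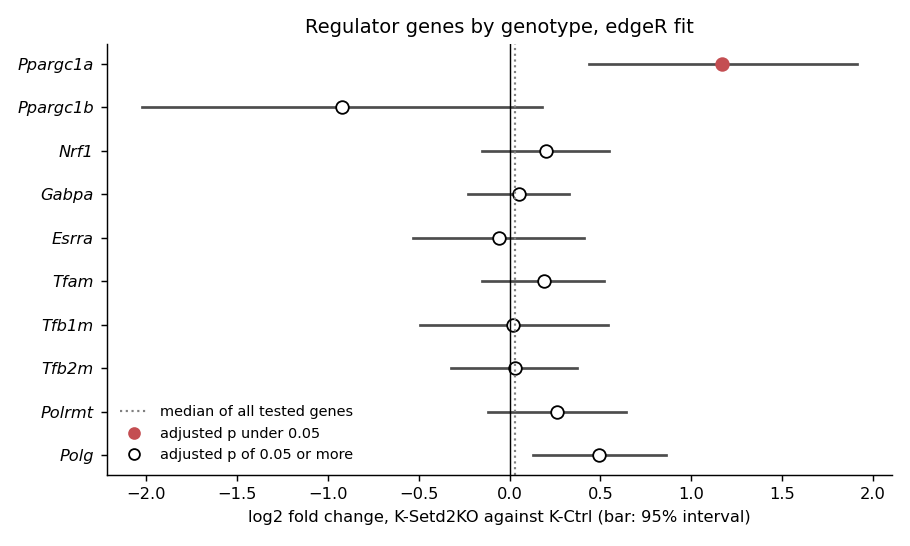
Log2 fold change of each regulator, K-Setd2KO against K-Ctrl, from the edgeR fit with 95% intervals as bars; the filled point passed the adjusted threshold of 0.05 and the dotted line is the median of all tested genes (0.03). The Ppargc1a interval runs from 0.44 to 1.91, that of Polg from 0.13 to 0.86, and the other 8 cross 0.

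The order of the members was compared per length, in TPM over the 8 tumors. *Gabpa* was highest, with a median of 40.3 TPM (34.9 to 53.5), and *Tfam* followed at 22.6 TPM (20.8 to 33.7). *Polg*, *Tfb2m*, *Tfb1m* and *Esrra* formed a middle group with medians of 17.7, 17.5, 16.4 and 15.6 TPM, whose neighbours overlapped in range. *Polrmt*, *Ppargc1a* and *Nrf1* had medians of 9.12, 8.62 and 6.85 TPM and overlapped as well. *Ppargc1b* was lowest, at 1.13 TPM (0.5 to 2.41). Neighbours in this order were apart over all 8 tumors only between *Gabpa* and *Tfam*, between *Esrra* and *Polrmt*, and between *Nrf1* and *Ppargc1b*. *Ppargc1a* ran from 2.99 to 17.7 TPM, so its lowest tumor lay below every tumor of *Nrf1* and its highest above every tumor of *Polrmt*. By group, the mean level of *Ppargc1a* was 5.38 ± 2.3 TPM in *K-Ctrl*, beside 6.34 ± 0.766 for *Nrf1* and 8.07 ± 1.25 for *Polrmt*, and 12.1 ± 3.9 TPM in *K-Setd2KO*, beside 7.23 ± 1.14 and 9.63 ± 1.42 (SD, n = 4 each). That of *Polg* was 15.9 ± 1.78 TPM in *K-Ctrl*, beside 17.3 ± 1.56 for *Tfb2m* and 16.6 ± 3.95 for *Tfb1m*, and 22.2 ± 4.42 TPM in *K-Setd2KO*, beside 17.6 ± 3.32 and 16.8 ± 2.26. No change of order between the genotypes was tested.

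Correlations among the members varied widely in sign and size. After the group means were subtracted, the 45 pairs of members had a median Pearson correlation of -0.05 over the 8 tumors. The values ran from -0.87 between *Ppargc1b* and *Polrmt* to 0.69, reached by *Esrra* with *Ppargc1a* and with *Polrmt*. These are descriptions of 8 libraries that differ in depth. By the same measure, the tested genes most like *Ppargc1a* were *Rsrc2* (0.984), *Cdc25b* (0.976) and *Tpra1* (0.976). Those most like *Ppargc1b* were *Lrp8* (0.975), *Lrch4* (0.974) and *Rmdn1* (0.966), and those most like *Tfam* were *Rev1* (0.987), *Gm38077* (0.984) and *Zfp946* (0.984). With 14929 genes compared over 8 tumors, values of this size are the top of a long list.

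The target of the knockout was measured in the same fit. *Setd2* (ENSMUSG00000044791.16, chromosome 9, 110532597 to 110618633, plus strand) was at 140 ± 8.81 CPM in *K-Ctrl* against 136 ± 15.5 CPM in *K-Setd2KO* (SD, n = 4 each; log2 fold change -0.05, adjusted p = 0.824 by edgeR). A guide RNA edits DNA at 1 site and need not lower the mRNA count, so this level does not check the labels. Total counts ran from 5806599 to 21290402, a 3.67-fold range.

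To place the members in their pathway, 7 wider lists with 164 genes were described, of which 161 were tested. Among them 8 genes passed the threshold, 5 higher and 3 lower, which is 4.97% against 12.7% of all tested genes. Their median log2 fold change was 0.07. The list of mitochondrial protein import genes held none (0 of 27 by edgeR, DESeq2 and limma voom, with 5 at an unadjusted p under 0.05 in edgeR). Without *K-Ctrl* replicate 4 it held 1, which was higher.

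**Figure D3:**
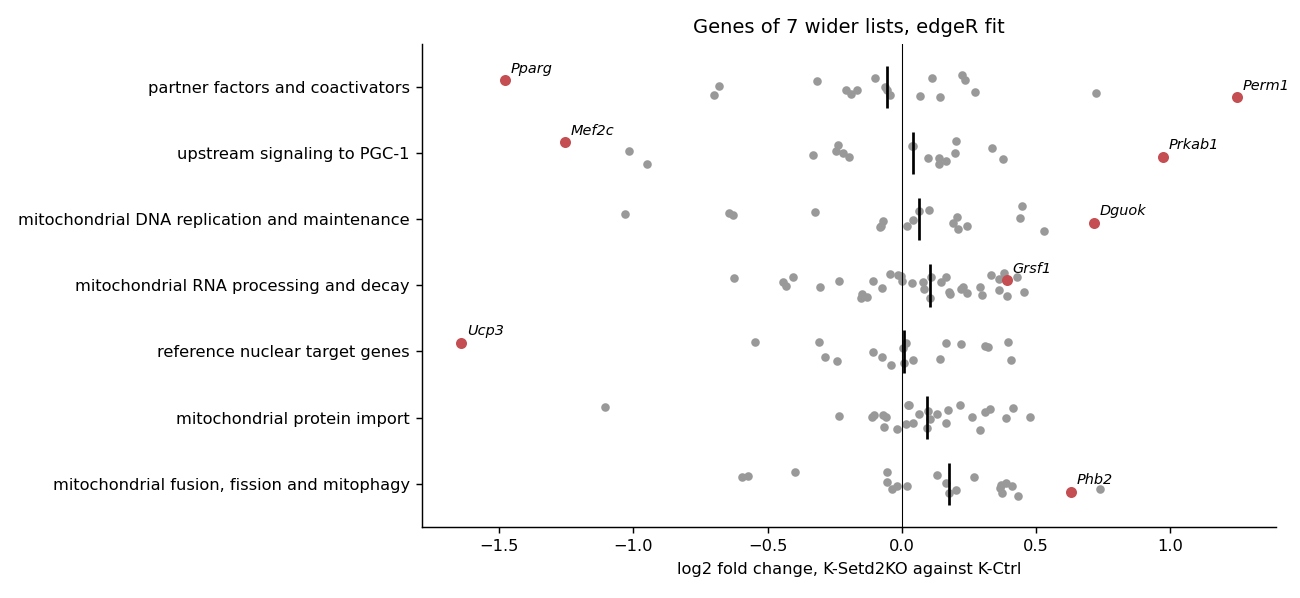
Log2 fold change, K-Setd2KO against K-Ctrl, of each tested gene in the 7 wider lists; red points passed the adjusted threshold of 0.05 and are named, and the black line is the median of the list. The list medians lie between -0.05 and 0.17, and the named genes lie from -1.64 (Ucp3) to 1.25 (Perm1).

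Among 20 partner factors and coactivators (19 tested, median log2 fold change -0.05), 1 was higher and 1 lower. *Perm1*, a PGC-1 and ERR-induced regulator known from muscle, was at 2.83, 4.79, 4.62 and 4.55 CPM in *K-Ctrl* against 8.32, 13.2, 11.4 and 6.85 CPM in *K-Setd2KO*, with all knockout tumors above all controls. Its log2 fold change was 1.25 (SE 0.286, adjusted p = 0.0246 by edgeR). The call was lost with a sex term (adjusted p = 0.0555) and without *K-Ctrl* replicate 1, *K-Ctrl* replicate 3 or *K-Setd2KO* replicate 3 (0.0624, 0.064 and 0.0623). *Pparg*, a nuclear receptor that PGC-1α coactivates and that alveolar macrophages also express, was at 33.5, 33.5, 60.7 and 13.9 CPM in *K-Ctrl* against 13.8, 9.79, 16.2 and 11.1 CPM in *K-Setd2KO*. The groups of *Pparg* overlapped, since *K-Ctrl* replicate 4 was as low as the knockout tumors (log2 fold change -1.48, adjusted p = 0.0396 by edgeR). The call was lost with voom (0.0833), with no filter (0.0692), with a sex term (0.103) and on leaving out any 1 tumor but *K-Ctrl* replicate 4 (0.0712 to 0.0941).

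Among 19 genes of upstream signaling to PGC-1 (median 0.04), 1 was higher and 1 lower. *Prkab1*, a regulatory subunit of the energy-sensing kinase AMPK, was at 55.0, 60.2, 78.3 and 77.6 CPM in *K-Ctrl* against 142, 169, 97.6 and 122 CPM in *K-Setd2KO* without overlap (log2 fold change 0.97, SE 0.193, adjusted p = 0.0154 by edgeR). With the replicate block and with a sex term its adjusted p was 0.0506 and 0.0646. *Mef2c*, a transcription factor of muscle, endothelial and immune cells that acts on the *Ppargc1a* promoter in muscle, was at 23.8, 39.0, 18.5 and 31.3 CPM in *K-Ctrl* against 10.9, 15.5, 10.4 and 10.1 CPM in *K-Setd2KO*. Every knockout tumor of *Mef2c* lay below every control (log2 fold change -1.25, adjusted p = 0.0167 by edgeR, and 0.0506 without *K-Setd2KO* replicate 3). Of the markers given above, 6 of 6 for leukocytes, 5 of 6 for macrophages and 2 of 6 for endothelium were also lower in *K-Setd2KO*, and their part in the *Pparg* and *Mef2c* results was not tested.

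Genes that keep and express mtDNA showed 1 called gene per list in the main fit. *Dguok*, which phosphorylates purine deoxynucleosides for mtDNA synthesis, was the 1 of 19 replication and maintenance genes past the threshold (list median 0.06). It was at 16.2 to 20.2 CPM in *K-Ctrl* and 24.8 to 37.9 CPM in *K-Setd2KO* (log2 fold change 0.72, SE 0.168, adjusted p = 0.0263 by edgeR). *Grsf1*, an RNA-binding protein of mitochondrial RNA granules, was the 1 of 37 genes of transcript elongation, processing and decay (list median 0.11). It was at 123 to 134 CPM in *K-Ctrl* and 153 to 194 CPM in *K-Setd2KO* (log2 fold change 0.39, SE 0.109, adjusted p = 0.0463 by edgeR). The groups did not overlap in either gene. The *Dguok* call was lost without any 1 of the 4 controls (adjusted p of 0.0508 to 0.0701) and without *K-Setd2KO* replicate 3 (0.053). The *Grsf1* call was lost without any 1 of the 8 tumors (0.0534 to 0.135), with the replicate block (0.123), with no filter (0.104) and with at least 10 counts in every tumor (0.0574). The replication and maintenance list held 1 higher and 1 lower call with DESeq2, limma voom and at least 10 counts in every tumor. Without *K-Ctrl* replicate 4 or *K-Setd2KO* replicate 3 its 1 call was a lower gene. So was the 1 call of the transcript list without *K-Setd2KO* replicate 2.

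The reference target genes showed no common direction. Of 20 reference target genes of PGC-1, NRF1, GABP and ERR, 19 were tested, 11 were above 0 and 8 below, and their median log2 fold change was 0.01. The 1 gene called in the main fit was lower. It was *Ucp3*, an uncoupling protein homolog of muscle and brown fat, at 16.4, 11.7, 22.7 and 6.78 CPM in *K-Ctrl* against 2.93, 8.34, 3.23 and 3.94 CPM in *K-Setd2KO*, where replicate 2 reached into the control range (log2 fold change -1.64, SE 0.449, adjusted p = 0.0441 by edgeR). The *Ucp3* call was lost with voom (0.0502), the replicate block (0.0807) and a sex term (0.112), and on leaving out any 1 tumor but *K-Ctrl* replicate 4 and *K-Setd2KO* replicate 2 (0.0701 to 0.121). Without *K-Setd2KO* replicate 2 the list of target genes held 3 called genes, all lower. Among 21 genes of mitochondrial fusion, fission and mitophagy (median 0.17), *Phb2*, a prohibitin of the inner membrane, was higher at 94.1 to 118 CPM against 61.4 to 79.3 CPM (log2 fold change 0.63, SE 0.125, adjusted p = 0.0155 by edgeR). *Pparg*, *Dguok* and *Phb2* lie on chromosome 6, whose tested genes had a median log2 fold change of 0.27.

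The output of the mtDNA machinery was read from the 37 genes of the mitochondrial genome. They took 5.43%, 3.7%, 4.31% and 4.29% of counts in *K-Ctrl* against 3.45%, 4.58%, 4.06% and 4.03% in *K-Setd2KO*. The highest and the lowest share belonged to replicate 1 of either group and the ranges overlapped. The means were 4.43% ± 0.724 and 4.03% ± 0.461 (SD, n = 4 each), a log2 difference of -0.13 (two-sided exact permutation p = 0.4). The difference moved with single tumors, to -0.03 without *K-Ctrl* replicate 1 and -0.06 without *K-Setd2KO* replicate 1, and to -0.21 without *K-Ctrl* replicate 2 and -0.20 without *K-Setd2KO* replicate 2. The 2.26-fold higher *Ppargc1a* level in *K-Setd2KO* thus stood beside a mitochondrial share that did not differ detectably. Poly(A) libraries were used, and a share of counts is not a measure of mtDNA copies, which were not measured here.

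Of the 13 mitochondrial mRNAs, 7 carried the share. *mt-Nd1*, *mt-Nd2*, *mt-Nd4*, *mt-Nd5*, *mt-Nd6*, *mt-Cytb* and *mt-Co1* had 9301 to 271206 counts per tumor. The other 6 (*mt-Nd3*, *mt-Nd4l*, *mt-Co2*, *mt-Co3*, *mt-Atp6* and *mt-Atp8*) had only 3 to 211 counts, although they are cut from the same long transcript as *mt-Co1* and *mt-Cytb*. For 5 of these 6, all but *mt-Atp8*, the annotation holds a nuclear pseudogene on chromosome 1 that is at least 99.7% identical over at least 90% of the gene, and none of the 7 well-counted mRNAs has such a copy over 90% of its length. *mt-Nd4* matches *Gm28439* at 100% over 63.6% of its length. In all 8 tumors the copy had more counts than the mitochondrial gene for 3 of the 5: *Gm28438* had 128 to 404 where *mt-Nd3* had 7 to 29, *Gm10222* had 15 to 56 where *mt-Nd4l* had 5 to 21, and *Gm10925* had 100 to 202 where *mt-Atp6* had 39 to 148. The other two were nearer to their gene, with 27 to 72 counts for *Gm28437* where *mt-Co3* had 25 to 106, and 43 to 104 for *Gm28661* where *mt-Co2* had 72 to 211. How reads that match several places were counted is not given in the sources used here, and the part of these copies in the low counts was not tested.

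A stretch of 90 bases shows the likeness. The first pair, bases 301 to 390 of *mt-Co2* (mitochondrial genome, 7013 to 7696, plus strand) and the matching bases of *Gm28661* (chromosome 1, 24614885 to 24615565, minus strand), has no mismatch.
mt-Co2: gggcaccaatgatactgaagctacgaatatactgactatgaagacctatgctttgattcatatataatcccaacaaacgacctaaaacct
Gm28661: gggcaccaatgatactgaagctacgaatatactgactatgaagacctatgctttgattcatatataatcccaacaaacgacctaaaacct
The second pair, bases 301 to 390 of *mt-Co1* (mitochondrial genome, 5328 to 6872, plus strand) and the matching bases of *Gm13340* (chromosome 2, 22588103 to 22589647, minus strand), differs in the base in capitals. *Gm13340* is 97.6% identical to *mt-Co1* over the whole gene, and *mt-Co1* was the highest mitochondrial mRNA by counts. These stretches are from the transcripts of GENCODE M21 on GRCm38.
mt-Co1: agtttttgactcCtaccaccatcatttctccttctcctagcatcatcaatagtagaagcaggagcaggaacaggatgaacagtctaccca
Gm13340: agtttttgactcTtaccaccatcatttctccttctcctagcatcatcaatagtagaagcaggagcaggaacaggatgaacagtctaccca

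**Figure D4:**
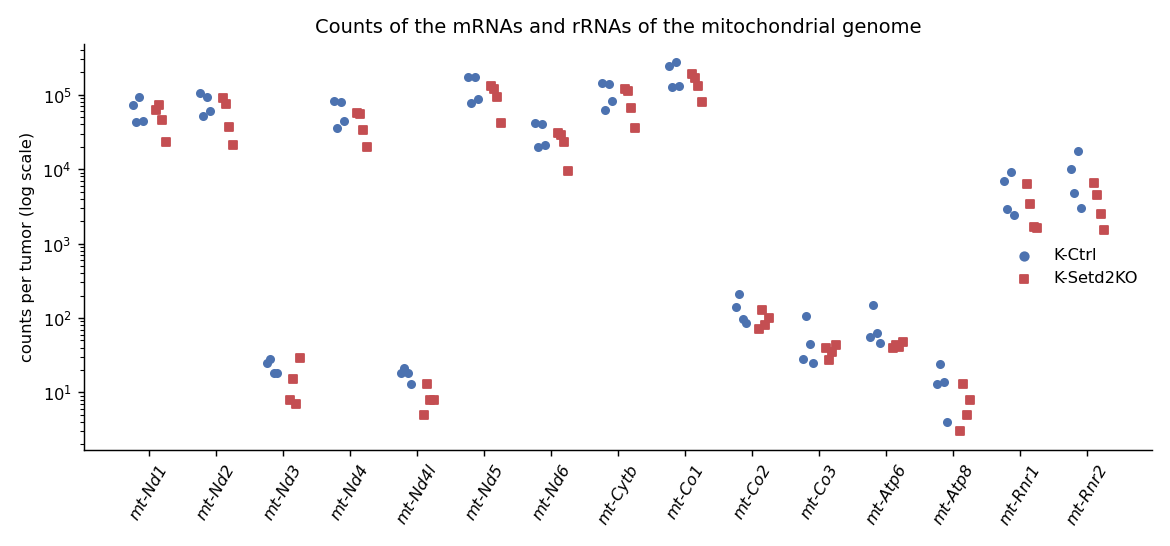
Counts per tumor (log axis) of the 13 mRNAs and 2 rRNAs of the mitochondrial genome as deposited, with K-Ctrl as circles and K-Setd2KO as squares. The 7 well-counted mRNAs lie between 9301 and 271206 counts and the 6 others between 3 and 211, in both genotypes.

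None of the 15 mitochondrial mRNAs and rRNAs passed the test in edgeR. The log2 fold changes of the 7 well-counted mRNAs lay between -0.23 (*mt-Nd2*, SE 0.221) and 0.06 (*mt-Nd1*, SE 0.187). *mt-Co1*, the catalytic subunit of complex IV, was at 15070, 10710, 12520 and 11855 CPM in *K-Ctrl* against 9883, 12738, 12008 and 13604 CPM in *K-Setd2KO* (log2 fold change -0.06). *mt-Nd6*, the 1 mRNA encoded on the opposite mtDNA strand, had 4.88 ± 0.179 counts per 100 counts of the other 6 in *K-Ctrl* against 4.87 ± 0.614 in *K-Setd2KO* (SD, n = 4 each; two-sided exact permutation p = 0.886). Whether counting used strand is not given in the sources used here, so this ratio is one of counts on these genes and not a measure of strand balance.

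Of these 15 genes, only the large rRNA *mt-Rnr2* had an unadjusted p under 0.05 in edgeR. It was at 623, 399, 808 and 265 CPM in *K-Ctrl* against 330, 339, 227 and 257 CPM in *K-Setd2KO*. The groups overlapped and 2 knockout tumors lay below all controls (log2 fold change -0.86, SE 0.320, unadjusted p = 0.0243, adjusted p = 0.109 by edgeR). With DESeq2 the adjusted p was 0.0482, and without *K-Ctrl* replicate 4 it was 0.0295 by edgeR. In the other 15 alternative fits it was 0.0943 to 0.262, and the log2 fold change was -0.58 without *K-Ctrl* replicate 3. *mt-Rnr1* had a log2 fold change of -0.37 (adjusted p = 0.429 by edgeR). The rRNAs and tRNAs, whose poly(A) tails are short or missing, were a small share of counts. The rRNAs took 0.0864% ± 0.0351 in *K-Ctrl* against 0.053% ± 0.0104 in *K-Setd2KO* (SD, n = 4 each; log2 difference -0.63, two-sided exact permutation p = 0.171). The tRNAs took 0.00721% ± 0.00351 against 0.00371% ± 0.00134 (log2 difference -0.85, two-sided exact permutation p = 0.143). Of the mitochondrial tRNA genes 5 had enough counts to be tested and none was called. *mt-Tc* and *mt-Te* had unadjusted p-values of 0.0138 and 0.0282 (log2 fold changes -1.67 and -1.23, adjusted p = 0.0774 and 0.119 by edgeR).

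To relate the regulators to this output, the log2 level of each member, computed without mitochondrial counts, was set against the mitochondrial share over the 8 tumors, 10 relations in all. None passed the threshold after Benjamini-Hochberg adjustment. *Ppargc1a* had a Pearson r of -0.02 (Spearman rho 0.0, exact permutation p = 0.959 for r and 1.0 for rho, adjusted 0.959 and 1.0). Without the tumors farthest from the median share, replicate 1 of each group, r was 0.52 (exact permutation p = 0.289), and with the group means subtracted it was 0.46. *Tfam* had an r of 0.02 and a rho of 0.26 (exact permutation p = 0.95 and 0.536, adjusted 0.959 and 0.884), and *Polrmt* an r of -0.05 and a rho of -0.33 (exact permutation p = 0.9 and 0.428, adjusted 0.959 and 0.856).

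*Tfb1m* had the strongest relation, an inverse one, with an r of -0.75 and a rho of -0.69 (exact permutation p = 0.0437 and 0.0694, adjusted 0.437 and 0.694). It held its size with the group means subtracted (-0.76). Without the tumors farthest from the median share, *K-Ctrl* and *K-Setd2KO* replicate 1, r was -0.64 (exact permutation p = 0.178). Without *K-Ctrl* replicate 1 alone, the smallest adjusted exact permutation p of any member was 0.882. The plotted points show *K-Ctrl* replicate 1 with the highest share and the lowest *Tfb1m* level, and *K-Ctrl* replicate 2 with a low share and the highest level.

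**Figure D5:**
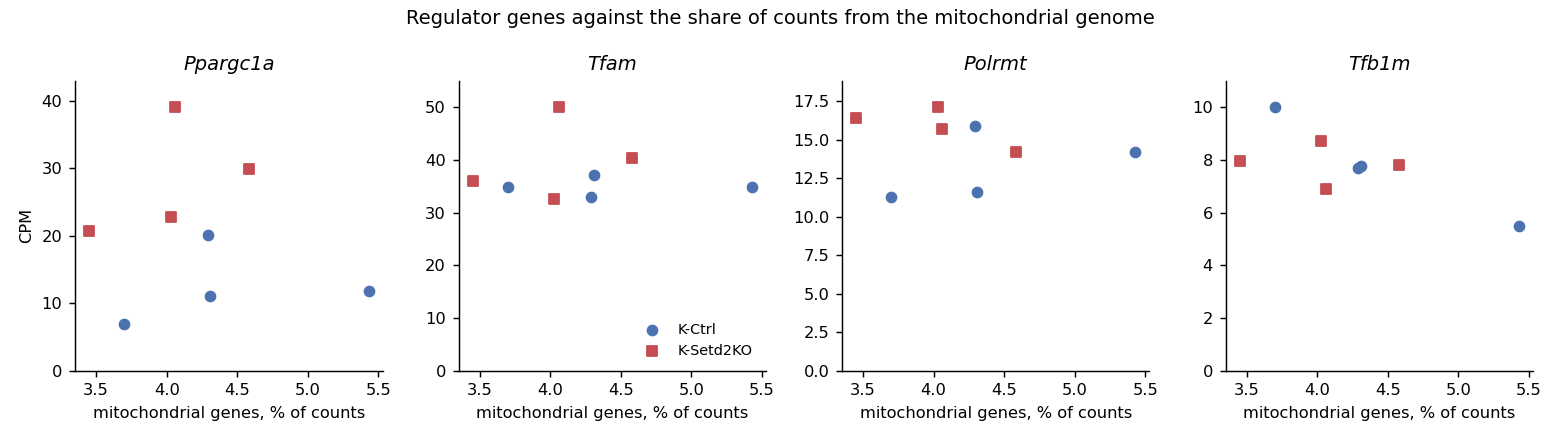
Level of Ppargc1a, Tfam, Polrmt and Tfb1m (CPM, linear axis from 0) against the percent of counts from the mitochondrial genome in each tumor, with K-Ctrl as circles and K-Setd2KO as squares. Ppargc1a separates the genotypes vertically, with an r against the share of -0.02 over all 8 tumors and 0.46 with the group means subtracted. Tfb1m has an r of -0.75 (exact permutation p = 0.0437, adjusted 0.437). Each r uses the log2 level computed without mitochondrial counts, unlike the plotted CPM.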

How the data were processed

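The authors deposited 1 table of raw counts per gene with exon lengths and no normalization. The submitters' processing notes name STAR 2.5.2b, featureCounts 1.5.0-p1 and GRCm38.p4. The library kit was strand-aware and poly(A)-selecting. The strand setting, the annotation release and the handling of reads with several matches are not given in the sources used here. Of 48709 identifiers, 48349 (99.26%) matched GENCODE M21. Coordinates are 1-based on GRCm38.

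Counts were fitted in R 4.3.3 with edgeR 4.0.16 (filterByExpr, TMM, robust quasi-likelihood test, genotype alone), with Benjamini-Hochberg adjustment over 14929 genes and a threshold of 0.05. SE was the absolute log2 fold change over the square root of F. Single values were compared by two-sided exact permutation over 70 assignments, whose smallest p is 0.0286. Correlations with the mitochondrial share used exact permutation over 40320 pairings. Their log2 CPM was computed without mitochondrial counts, with 0.5 added to each count. Other log2 CPM values used a prior count of 2. Alternatives were DESeq2 1.42.0, limma voom 3.58.1, RLE and upper-quartile scaling, mitochondrial genes left out of scaling, other filters, a replicate block, a sex term, a length and GC correction (mgcv 1.9.3), and each tumor left out. Fits were tested on simulated data. Nuclear copies were listed from 90% identity over at least 50% of a gene.

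Genes named were *Setd2*, the 10 members, the mitochondrial mRNAs and rRNAs, called genes of each wider list, and the 3 genes most like *Ppargc1a*, *Ppargc1b* and *Tfam*. Any other gene was named after its values were seen. The members and all lists were chosen with earlier results of these data known. The allele that defines the *K* model is not reported here.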

Additional observations from a re-analysis of the deposited data

Results flagged for a closer look

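A tumor that stood apart from the other 3 of its group, by Dixon's gap test at the 95% level, was found in 7 of 70 groups of 4 values, where chance gives about 1 in 20 (3.5 groups). None was a value of a member. Among mitochondrial mRNAs, *mt-Cytb* was at 8447 CPM in *K-Setd2KO* replicate 2 against 6104 to 6146 CPM in the other 3. The low-count mRNAs gave *mt-Nd3* at 4.96 CPM in *K-Setd2KO* replicate 4 against 0.411 to 1.15 CPM, *mt-Co3* at 8.91 CPM in *K-Ctrl* replicate 2 against 1.72 to 2.23 CPM, and *mt-Atp6* at 12.4 CPM in the same tumor against 2.86 to 4.11 CPM. In the wider lists, *Perm1* was at 2.83 CPM in *K-Ctrl* replicate 1 against 4.55 to 4.79 CPM. In *K-Setd2KO* replicate 2, *Mef2c* was at 15.5 CPM against 10.1 to 10.9 CPM and *Phb2* at 94.1 CPM against 114 to 118 CPM.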

How the results depend on the processing

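The number of members past the threshold was 1 in the main fit and 0 with the replicate block, in which *Ppargc1a* had an adjusted p of 0.0802. Leaving out 1 tumor gave 0 to 1. Without *K-Setd2KO* replicate 4 the 1 gene was *Polg*, and without *K-Ctrl* replicate 4 it was *Ppargc1a*. Called genes of the wider lists numbered 8 in the main fit, 5 with the replicate block, 4 with a sex term, and 3 without *K-Ctrl* replicate 1, *K-Ctrl* replicate 3 or *K-Setd2KO* replicate 3 to 11 without *K-Setd2KO* replicate 2. The split of 5 higher and 3 lower became 6 and 6 with DESeq2 (12 in all), 4 and 5 under the filter of 10 counts, 4 and 6 without *K-Ctrl* replicate 4, and 5 and 6 without *K-Setd2KO* replicate 2. Calls over all tested genes moved as well, from 1897 (12.7%) in the main fit to 1341 with the replicate block and 1237 with a sex term. Without *K-Ctrl* replicate 1, *K-Ctrl* replicate 3 or *K-Setd2KO* replicate 3 there were 938, 763 and 1011. Without *K-Ctrl* replicate 4 or *K-Setd2KO* replicate 2 there were 1963 and 2058. Under the filter of 10 counts there were 1719, and with DESeq2 3211 (17.2%). For mitochondrial mRNAs and rRNAs the count was 0, DESeq2 gave 1 and leaving out 1 tumor 0 to 1, the gene being *mt-Rnr2*. The cause of these shifts was not tested. Replicate numbers did not pair the tumors: deviations of same-numbered tumors correlated at -0.0742, -0.0299, 0.191 and -0.0232, and only replicate 3 was closest to its own number.

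Signs turned in these results. *Setd2* was 0.10 with length and GC trends removed. *Esrra* was 0.07 with a sex term, 0.01 with the chromosome median subtracted and -0.17 to 0.15 with 1 tumor left out. *Tfb1m* was -0.01 with at least 10 counts in every tumor, -0.15 with a sex term, -0.06 with length and GC trends removed and -0.11 to 0.17 with 1 tumor left out. *Tfb2m* was -0.01 with at least 10 counts and -0.06 to 0.07 with 1 tumor left out. *Gabpa* was -0.06 to 0.11 with 1 tumor left out, and *Nrf1* was -0.06 with the chromosome median subtracted. Within male tumors *Nrf1* was -0.12, and within female tumors *Esrra* was 0.34, *Tfb1m* -0.29 and *Tfb2m* -0.18. The mitochondrial share and its relations to the members stayed on their side of the threshold in every alternative run. *Ppargc1b*, with 4 to 67 counts per tumor, could not be tested with at least 10 counts in every tumor.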
